A study of Mus musculus with 13 samples.

Results

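Late Kdm3b knockout (KO) cells, sampled at day 10 of a reprogramming treatment, were set against early wild-type (WT) cells, sampled at day 2 of the same treatment. The 4 libraries, KO day 10 replicates A and B and WT day 2 replicates A and B, were taken by their titles from the 13 samples of the series, and all genes of the deposited tables were kept, 14324 of 20325 of which passed the filter on low counts. The question was whether KO cells at day 10 still stood where WT cells had been at day 2 or had come to differ from that state. All 4 were bulk RNA-seq libraries of mouse pre-iPSCs, cells derived from embryonic fibroblasts (MEFs) that have stopped partway to induced pluripotency. The KO day 10 group was Kdm3b KO cells and the WT day 2 group wildtype cells. Both were given AA+2i, which is ascorbic acid with CHIR-99021, an inhibitor of GSK3, and PD-0325901, an inhibitor of the ERK-activating kinase MEK, in ESC medium with serum and leukaemia inhibitory factor. Cultures were split on day 4, so the KO day 10 cells had been passaged and the WT day 2 cells had not. The other pre-iPSC groups, KO and WT at day 0 (the start of the course, by title and time point), KO at day 2 and WT at day 10, had 2 libraries each and serve for orientation. The labels used here do not give the number of KO clones, the KO allele, or if the replicates came from cultures of their own, so p-values measure the spread between these libraries, which may be technical. Genotype and time differ together in this comparison and cannot be told apart within it.

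KDM3B is a histone demethylase that removes methyl groups from lysine 9 of histone H3, a mark of silent chromatin, and it belongs to a family of iron- and oxoglutarate-dependent enzymes whose activity ascorbic acid supports. On the way from fibroblast to pluripotent cell, genes of the starting cell are shut, epithelial junction genes open, and a late, naive pluripotency network (Nanog, Esrrb, Tfcp2l1, Prdm14 and partners) is switched on. Pre-iPSCs carry active reprogramming factors with little of that late network, and MEK and GSK3 inhibition with ascorbic acid is a known way to move them on.

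The KO day 10 libraries held 16005002 and 16512846 expected counts, and the WT day 2 libraries 20665010 and 20724006. Levels are given as CPM, counts scaled to a common TMM-adjusted library size, which do not allow levels of different genes to be compared. The targeted gene, Kdm3b, had 19.6 and 41.4 CPM at KO day 10, against 148 and 171 CPM at WT day 2 (log2 fold change -2.39 ± 0.38 (SE), FDR 0.0128, from edgeR's quasi-likelihood test with Benjamini-Hochberg adjustment over all genes, as every FDR here). Both KO libraries lay below both WT libraries, and Kdm3b was at 44.4 and 65.1 CPM at KO day 0. Without WT day 2 A, WT day 2 B or KO day 10 A the call was lost, at log2 fold changes of -2.49 to -1.96. The pluripotency factor Pou5f1 (Oct4), used as a label check for reprogramming cells, had 2490.2 and 3170.0 CPM at KO day 10, against 2128 and 3491 CPM at WT day 2. Of 13 immune, 10 endothelial and 10 muscle and fat markers in the files, 3, 2 and 5 were at 0 in all 4 libraries, among them Tyrobp, Emcn, Erg, Myod1 and Myog. The summed level of the muscle and fat list was 4.09 and 6.99 CPM at KO day 10, against 6.16 and 4.08 CPM at WT day 2, and those of the immune and endothelial lists are given below. Of 29 mesenchymal and fibroblast genes, Lum was at 0 in all 4 libraries, and the summed level was 3667 and 3437 CPM at KO day 10, against 2743 and 5874 CPM at WT day 2.

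KO day 10 cells differed from WT day 2 cells in 632 genes, or 4.41% of those tested. Of these, 362 (2.53%) were higher and 270 (1.88%) lower at KO day 10, and 241 differed by more than 4-fold (117 higher, 124 lower). At an unadjusted p under 0.05 edgeR had 17.5% of all genes, 9.63% higher and 7.83% lower, and DESeq2 called 5.4% higher and 4.2% lower at an adjusted p under 0.05. The same 2 KO day 10 libraries differed from WT day 0 in 1517 genes (10.6%), with 6.55% of all genes higher and 4.04% lower, and from WT day 10 in 4628 genes (32.3%), with 12.4% higher and 19.9% lower. WT day 2 had the fewest calls of the 3 WT time points. These 3 comparisons share the KO day 10 libraries. The median absolute log2 difference over all genes was 0.30 against WT day 2, 0.35 against WT day 0 and 0.55 against WT day 10. Against KO day 2, 8 days earlier in the same genotype, 444 genes (3.1%) were called, 357 of them higher (2.49%) and 87 lower (0.607%) at KO day 10. The count against WT day 2 depended on single libraries: leaving out KO day 10 A or B gave 87 or 154 calls, leaving out WT day 2 A or B gave 120 or 45, and leaving out WT day 10 A or B, 316 or 328, libraries of a group that is not compared here. In all 20 fits that gave the 3 counts, those with 1 library left out included, the count was lowest against WT day 2 and highest against WT day 10.

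**Figure D1:**
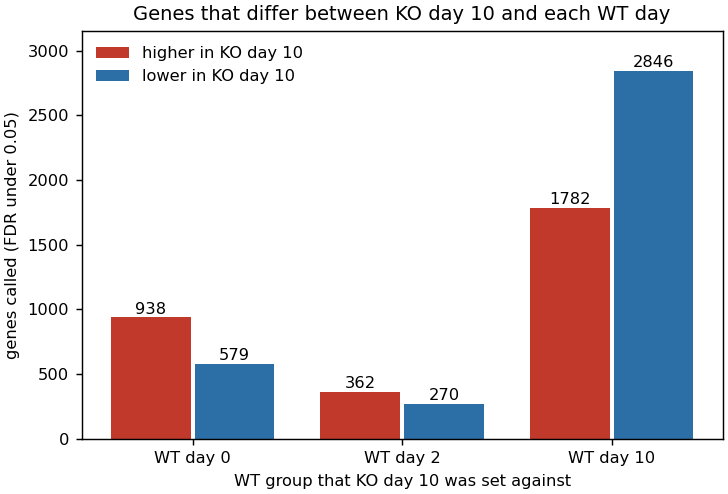
Number of genes called at FDR under 0.05 (y axis) when KO day 10 was set against WT day 0, day 2 and day 10 (x axis), with red bars for genes higher and blue bars for genes lower at KO day 10. The bars are shortest against WT day 2, with 362 higher and 270 lower, and tallest against WT day 10, with 1782 higher and 2846 lower.

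Whether the 632 genes lay on the WT time course was read from libraries that this comparison does not use. WT day 10 against WT day 0 called 4889 genes (34.1%), 3012 that rose (21%) and 1877 that fell (13.1%) in WT cells over the 10 days. The 3012 WT risers were split in the comparison of KO day 10 with WT day 2: 139 were higher (4.61%), 122 were lower (4.05%), and their median log2 fold change was 0.05, with quartiles of -0.51 and 0.77, against a median of -0.02 and quartiles of -0.33 and 0.28 over all genes. Among the 1877 WT fallers, 90 were higher (4.79%) and 62 lower (3.3%), with a median of -0.03. Over all genes the shares called were 2.53% higher and 1.88% lower. Genes of the WT course were called in both directions. A further 6461 genes had moved by less than 0.5 on the log2 scale in WT cells without a call. Of these, 97 were higher (1.5%) and 48 lower (0.743%) at KO day 10, shares below those over all genes. Of the 362 genes called higher, 231 (63.8%) had both KO day 10 libraries above all 6 WT libraries of any day, against 9.46% of all genes tested, and of the 270 called lower, 167 (61.9%) had both below all 6, against 8.4% of all genes. Since WT day 2 is among the 6, a called gene is more likely to lie outside than any gene. Without WT day 2 B, the counts of risers called higher, of WT fallers called lower, of genes level in WT called and of called genes with both KO libraries outside all WT libraries were 10, 8, 8 and 39.

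Part of the difference was already present in the day 0 cells. KO day 0 against WT day 0 called 1187 genes (8.29%), 386 higher (2.69%) and 801 lower (5.59%) in KO. In the comparison of KO day 10 with WT day 2, 131 of those 386 genes were higher (33.9%) and 1 was lower, with a median log2 fold change of 0.99. Of the 801 genes lower in KO at day 0, 187 were lower (23.3%) and 9 higher, with a median of -0.75. The day 0 sets held 36.2% of all genes called higher and 69.3% of all genes called lower. No library is shared between the day 0 comparison and that of KO day 10 with WT day 2, although same-letter libraries of days 0 and 2 varied together. Leaving out KO day 10 A or B gave 33 or 40 genes lower at both times and 35 or 58 higher, and leaving out WT day 2 A or B gave 69 or 28 lower and 28 or 12 higher.

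**Figure D2:**
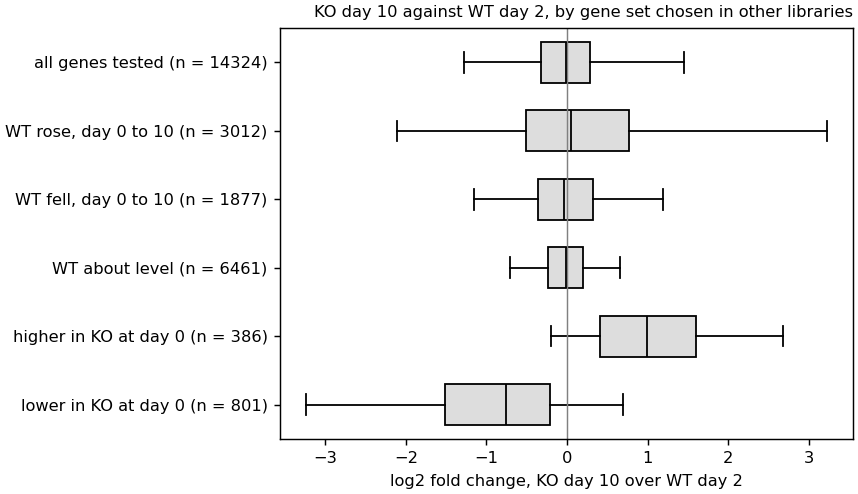
Log2 fold change of KO day 10 over WT day 2 (x axis) for all genes and for 5 sets chosen in the WT course or at day 0 (y axis, with the number of genes). Boxes span the quartiles, lines mark medians and whiskers run from the 5th to the 95th percentile. The WT course sets centre near 0 with medians of 0.05 and -0.03, whereas the sets higher and lower in KO at day 0 centre at 0.99 and -0.75.

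Part of the genes lower at KO day 10 had been almost silent in KO cells at day 0. Of the 270 genes called lower, 66 had 3 counts or fewer over both KO day 0 libraries. By day 10 of AA+2i, 48 of these 66 had more than 3 counts, and of all 270, 19 had 3 or fewer at KO day 10. The 66 were chosen by their low counts at KO day 0, so higher counts later can follow from that choice. The same shares were not counted over all genes, so these counts do not set the called genes apart. Srgn encodes serglycin, a proteoglycan of secretory granules. It had 2.98 and 4.94 CPM at KO day 10, against 87.1 and 93.9 CPM at WT day 2 (log2 fold change -4.51 ± 0.40 (SE), FDR 0.00184), and 0.633 and 0.7897 CPM at KO day 0. Both KO day 10 libraries were far below WT and yet above both KO day 0 libraries. Gpx7, a peroxidase of the endoplasmic reticulum, had 0.186 and 0.0603 CPM at KO day 10, against 6.56 and 6.71 CPM at WT day 2 (log2 fold change -5.69 ± 0.50 (SE), FDR 0.00275), and at KO day 10 it held 4 counts in all. Alox15, a lipoxygenase, had 0.682 and 1.33 CPM at KO day 10, against 19.6 and 20.9 CPM at WT day 2 (log2 fold change -4.32 ± 0.36 (SE), FDR 0.00163). Dok2, an adaptor that acts below tyrosine kinases in blood cells, had 1.92 and 3.62 CPM at KO day 10, against 28.8 and 33.97 CPM at WT day 2 (log2 fold change -3.50 ± 0.39 (SE), FDR 0.0036). In none of these genes did the groups overlap.

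Srgn and Dok2 are also genes of blood cells, so the immune marker list is given beside them. Of its 6 tested members edgeR called none, against 2.53% higher and 1.88% lower over all genes. At an unadjusted p under 0.05, 1 was higher and 1 lower, against 9.63% and 7.83% of all genes. DESeq2 called 1 and 1, against 5.4% and 4.2%. The log2 fold change was above 0 in 2 of the 6 and below 0 in 4. The summed level of its 13 members in the files was 22.1 and 23.03 CPM at KO day 10, against 43.8 and 86.3 CPM at WT day 2. Laptm5, a lysosomal gene, made up most of the WT day 2 sums, at 32.4 and 66.8 CPM, and had 11.3 and 9.83 CPM at KO day 10. Cd68 and Cd14 were not called, at log2 fold changes of -0.53 and -0.04. Ptprc, Lyz2 and Fcer1g each lay at 0 in KO day 10 and at no more than 0.136 CPM in WT day 2. The part of immune cells in Srgn and Dok2 was not tested. In bulk libraries fewer cells of a type and less RNA per cell cannot be told apart.

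Among the other lower genes were Zfp677 and Zfp709, which encode zinc-finger proteins. Zfp677 had 1.61 and 1.51 CPM at KO day 10, against 20.6 and 22.00 CPM at WT day 2 (log2 fold change -3.77 ± 0.27 (SE), FDR 0.00163). It had no count in either KO day 0 library, 2.59 and 2.82 CPM at WT day 0 and 4.43 and 3.25 CPM at WT day 10, so WT day 2 was the high point of the WT course and both KO day 10 libraries lay under every WT library. Zfp709 had 0.248 and 0.0603 CPM at KO day 10, against 5.87 and 5.94 CPM at WT day 2 (log2 fold change -5.21 ± 0.59 (SE), FDR 0.00408), and 5 counts over both KO day 10 libraries. Gvin1, an interferon-induced large GTPase, had 2.17 and 1.87 CPM at KO day 10, against 17.99 and 21.3 CPM at WT day 2 (log2 fold change -3.28 ± 0.35 (SE), FDR 0.00311), and Nccrp1 had 0.3100 and 0.784 CPM at KO day 10, against 5.57 and 6.08 CPM at WT day 2 (log2 fold change -3.39 ± 0.41 (SE), FDR 0.00476). The calls of Srgn, Gpx7, Alox15, Dok2, Zfp677, Zfp709, Gvin1 and Nccrp1 held in all 20 settings tried. Serpinb3a, a serine protease inhibitor, had 0.496 and 0.121 CPM at KO day 10, against 5.57 and 6.26 CPM at WT day 2 (log2 fold change -4.24 ± 0.53 (SE), FDR 0.00736), and its call was lost without WT day 2 B, at -4.13.

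Among the genes higher at KO day 10 were the developmental transcription factors Nkx6-1, Sox21, Sp8 and Sox1. Nkx6-1, a homeodomain factor of ventral spinal cord and pancreatic beta cells, had 11.7 and 7.897 CPM at KO day 10, against 0.789 and 0.635 CPM at WT day 2 (log2 fold change 3.77 ± 0.30 (SE), FDR 0.00152). It stood at 2.43 and 2.71 CPM at KO day 0, 6.48 and 6.49 CPM at KO day 2 and no more than 0.789 CPM in any WT library. Sox21, a transcription factor of neural progenitors, had 6.88 and 8.44 CPM at KO day 10, against 0.739 and 0.635 CPM at WT day 2 (log2 fold change 3.47 ± 0.33 (SE), FDR 0.00251). WT cells reached 4.33 and 4.06 CPM of Sox21 at day 10, still below both KO day 10 libraries. Sp8, a zinc-finger factor of limb and forebrain development, had 15.1 and 15.5 CPM at KO day 10, against 1.33 and 1.497 CPM at WT day 2 (log2 fold change 3.43 ± 0.38 (SE), FDR 0.0036). Its call was lost without WT day 2 B, at a log2 fold change of 3.54. Sox1, an early neural factor, had 138 and 159.9 CPM at KO day 10, against 48.7 and 49.8 CPM at WT day 2 (log2 fold change 1.60 ± 0.17 (SE), FDR 0.00311), a 3.03-fold difference in means, and 13.2 and 10.4 CPM at WT day 10. Sox1 also lost its call without WT day 2 B, at 1.64, and when the test required more than a 2-fold change.

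Gpr37, Ric3, Tmeff2 and Shisa2, which encode membrane proteins, were also higher. Gpr37, a G protein-coupled receptor of glia, had 61.7 and 57.99 CPM at KO day 10, against 4.63 and 6.17 CPM at WT day 2 (log2 fold change 3.47 ± 0.34 (SE), FDR 0.0026), and 56.1 and 87.2 CPM at KO day 0. Ric3, a chaperone of nicotinic acetylcholine receptors, had 87.4 and 114 CPM at KO day 10, against 5.23 and 9.93 CPM at WT day 2 (log2 fold change 3.73 ± 0.44 (SE), FDR 0.00442), but only 1.02 and 1.63 CPM at KO day 0. Ric3 was also above all 6 WT libraries, whose highest values were 15.2 and 15.6 CPM at day 10. Tmeff2, a transmembrane protein with follistatin and EGF-like domains, had 8.18 and 8.02 CPM at KO day 10, against 0.6902 and 1.04 CPM at WT day 2 (log2 fold change 3.21 ± 0.37 (SE), FDR 0.00408). At KO day 2 Tmeff2 was still at 1.13 and 0.8603 CPM, below both KO day 10 values. Its change from KO day 2 to KO day 10 was called (log2 fold change 3.01, FDR 0.00498), which shares the KO day 10 libraries with the main comparison. Shisa2, whose Xenopus relative holds back Wnt and FGF receptors, had 32.2 and 29.7 CPM at KO day 10, against 5.72 and 4.898 CPM at WT day 2 (log2 fold change 2.54 ± 0.26 (SE), FDR 0.00277). The calls of Nkx6-1, Sox21, Gpr37, Ric3, Tmeff2 and Shisa2 held in all settings tried.

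**Figure D3:**
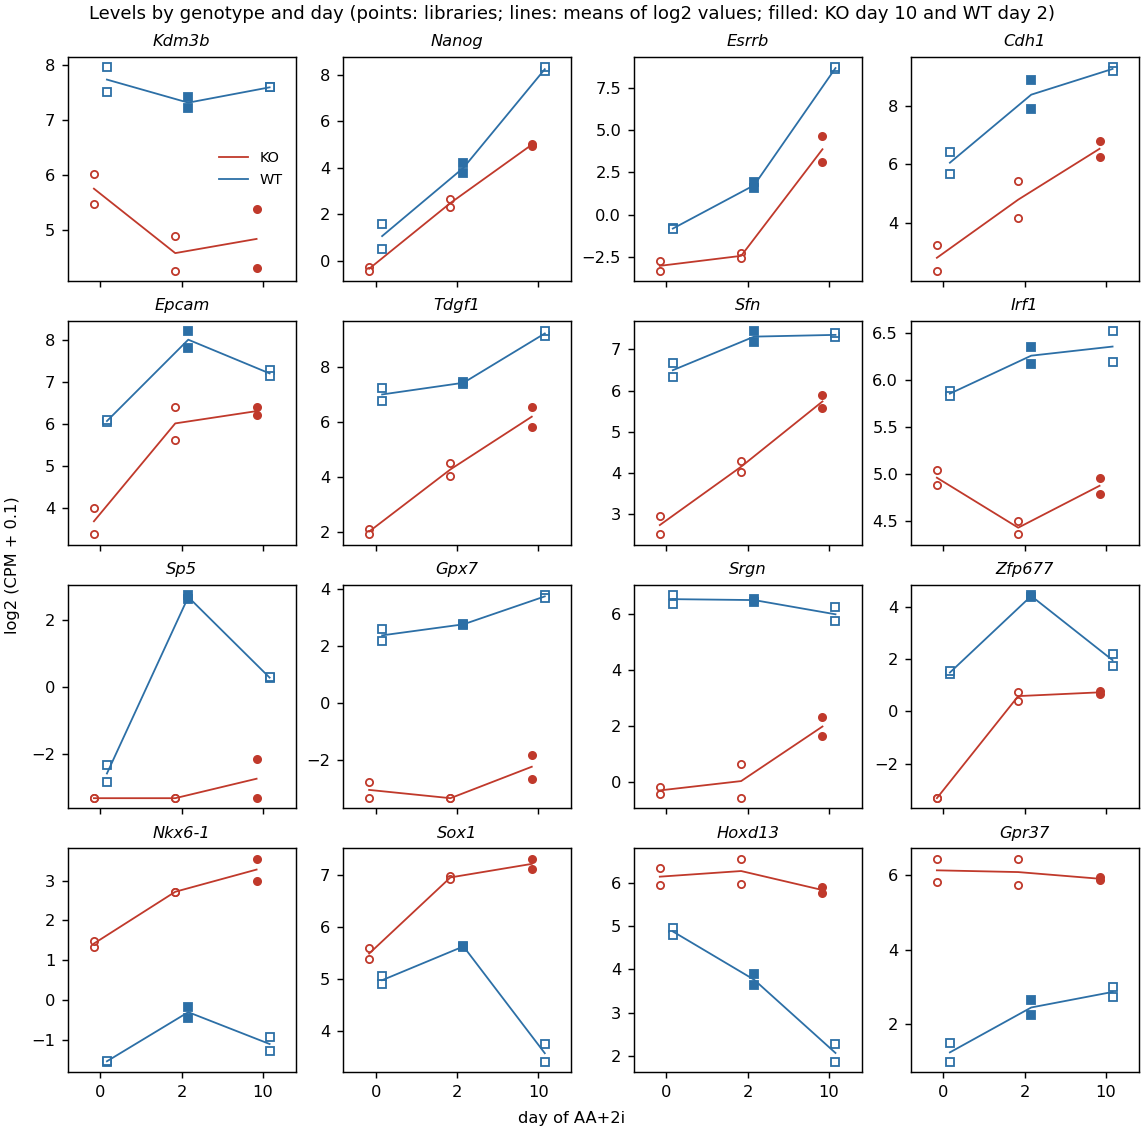
Levels of 16 genes as log2 (CPM + 0.1) (y axes, each on its own scale) at days 0, 2 and 10 of AA+2i (x axes, not to scale), with KO as red circles and WT as blue squares. Points are libraries, lines join means of the log2 values, and the filled points are the 4 libraries compared. In Srgn and Gpx7 the filled red points lie below all blue points, and in Nkx6-1 and Gpr37 they lie above all of them.

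Naive pluripotency genes went both ways between KO day 10 and WT day 2. Of 21 tested members, edgeR called 2 higher (Esrrb and Tcl1) and 1 lower (Tdh), and the median log2 fold change was -0.03, with 10 members above 0 and 11 below. Without adjustment 7 were higher and 3 lower at p under 0.05, against 9.63% and 7.83% of all genes. DESeq2 called 4 higher and 2 lower, against 5.4% and 4.2% of all genes. Set against WT day 10, 17 of the 21 were lower in the same KO day 10 libraries, and set against KO day 2, 12 were higher. The shares over all genes were 19.9% lower against WT day 10 and 2.49% higher against KO day 2. Against WT day 2 they were 2.53% higher and 1.88% lower. Nanog, a central factor of the network, had 32.5 and 30.9 CPM at KO day 10, against 18.3 and 13.7 CPM at WT day 2, and 285 and 319.8 CPM at WT day 10. The KO day 10 values of Nanog lay above both WT day 2 values without passing the test (log2 fold change 0.98 ± 0.30 (SE), FDR 0.114). Tcfcp2l1 (Tfcp2l1), a partner of Esrrb and Klf factors, had 284 and 344 CPM at KO day 10, against 249 and 286 CPM at WT day 2 (FDR 0.831), and Klf2 had 57.6 and 50.8 CPM at KO day 10, against 70.3 and 65.7 CPM at WT day 2 (FDR 0.371). In KO cells at day 0 their means had been 2.11 and 1.69 CPM.

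Esrrb, an orphan nuclear receptor that drives self-renewal, was 1 of the 2 called higher. It had 24.6 and 8.44 CPM at KO day 10, against 3.697 and 2.81 CPM at WT day 2 (log2 fold change 2.34 ± 0.45 (SE), FDR 0.024), while WT day 10 cells had 391 and 419 CPM. Replicate A was about 3 times as high as replicate B at KO day 10, and both were above both WT day 2 libraries. Tcl1, a coactivator of the kinase AKT, had 2.36 and 0.784 CPM at KO day 10, against 0.148 and 0.0454 CPM at WT day 2 (log2 fold change 3.96 ± 0.69 (SE), FDR 0.0173), from 51 counts at KO day 10 and 4 at WT day 2. Prdm14, a repressor of differentiation and of de novo DNA methylation, had 1.92 and 0.663 CPM at KO day 10, against 0.246 and 0.317 CPM at WT day 2 and was not called (FDR 0.0933). KO day 10 replicate A was above replicate B in 17 of the 21 naive genes, against 50.4% of all genes. The Esrrb call was lost without WT day 2 A or B, WT day 10 A or B or KO day 10 A, at 1.36 to 2.55, and that of Tcl1 without WT day 2 A or B or KO day 10 A, at 2.95 to 4.92. Tdh, threonine dehydrogenase, had 131 and 108 CPM at KO day 10, against 216 and 226 CPM at WT day 2 (log2 fold change -0.88 ± 0.19 (SE), FDR 0.0398). Among the fits with 1 library left out, the Tdh call was kept only without KO day 2 A or B, and in the others its log2 fold change was -1.04 to -0.74. The call was also lost with no filter, with only the 4 libraries compared and in the test against a 2-fold change.

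Of 20 general pluripotency genes tested, none was higher and 2 were lower, Epcam and Otx2, with a median of -0.08. The shares over all genes were 2.53% higher and 1.88% lower. Before adjustment, edgeR had 4 higher and 5 lower at p under 0.05, against 9.63% and 7.83% of all genes. DESeq2 called 3 higher and 5 lower, against 5.4% and 4.2% of all genes. Set against WT day 10, 13 were lower and 1 was higher, against 19.9% and 12.4% of all genes. Tdgf1 (Cripto), a coreceptor for Nodal, had 94.9 and 57.03 CPM at KO day 10, against 168 and 179 CPM at WT day 2, with both KO libraries lower, but did not pass the test (log2 fold change -1.19 ± 0.28 (SE), FDR 0.0512). It had been at 4.24 and 3.65 CPM at KO day 0, against 151 and 111 CPM at WT day 0. Otx2, a factor of the exit from the naive state, had 3.53 and 1.75 CPM at KO day 10, against 8.18 and 8.44 CPM at WT day 2 (log2 fold change -1.65 ± 0.33 (SE), FDR 0.0326) and no count at KO day 0. The Otx2 call was lost without WT day 0 A or B, WT day 2 A or B, WT day 10 A or B or KO day 10 B, at -1.68 to -1.22. The reprogramming factors Sox2 and Klf4 were not called: Sox2 had 207 and 209 CPM at KO day 10, against 144 and 234 CPM at WT day 2 and Klf4 618 and 820.0 CPM at KO day 10, against 582 and 1191 CPM at WT day 2, with FDRs of 0.957 and 0.902. Mycl1, a Myc family member, was called at low level, with 2.11 and 0.965 CPM at KO day 10, against 0.345 and 0.272 CPM at WT day 2 (log2 fold change 2.29 ± 0.41 (SE), FDR 0.0193), a call lost without WT day 2 A, WT day 2 B or KO day 10 A at 1.62 to 2.46.

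Germline genes are kept silent in most cells by DNA methylation, by H3K9 methyltransferases and by a variant Polycomb complex whose MGA, MAX and E2F6 subunits bind E-box and E2F sites at their promoters. To show those sequences, 2 of the promoters with an E-box are printed below, from RefSeq on GRCm38.p6, 250 bases before to 50 bases after the gene start, on the plus strand, with the E-box CACGTG in capitals. Stk31, at chr6:49395289-49395588, encodes a kinase-like protein of male germ cells and was one of the germline genes called, and Hormad1, at chr3:95559427-95559726, encodes a protein of the meiotic chromosome axis.
Stk31: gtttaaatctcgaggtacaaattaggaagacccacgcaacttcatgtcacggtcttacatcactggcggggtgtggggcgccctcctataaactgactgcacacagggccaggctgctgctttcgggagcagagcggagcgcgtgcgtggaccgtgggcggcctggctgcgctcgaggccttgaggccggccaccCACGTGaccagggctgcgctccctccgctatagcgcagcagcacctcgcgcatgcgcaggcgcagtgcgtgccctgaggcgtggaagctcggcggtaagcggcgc
Hormad1: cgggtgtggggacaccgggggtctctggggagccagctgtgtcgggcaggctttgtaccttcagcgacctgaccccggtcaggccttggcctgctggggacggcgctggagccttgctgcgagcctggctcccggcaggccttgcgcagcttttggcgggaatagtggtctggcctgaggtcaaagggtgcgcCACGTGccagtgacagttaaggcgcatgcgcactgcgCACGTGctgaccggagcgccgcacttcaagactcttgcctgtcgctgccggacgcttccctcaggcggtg
Of the 24 germline genes tested, 21 had a promoter in the table. The E-box was held by 11 of these (52.4%), against 8.09% of all 27025 genes with a promoter. The E2F motif TCCCGC was held by 9 (42.9%), against 22% of all. A gene was counted if any of its promoters held the motif. Both strands were searched, and matches of the 2 motifs can share at most 1 base. The match is a description of sequence.

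More germline genes had counts at KO day 10 than at WT day 2, most of them few. Of 24 members, 18 and 17 had at least 1 count in the KO day 10 libraries, against 10 and 12 in the WT day 2 libraries, which were the deeper ones. At WT day 10, 24 and 24 did. Over all genes, 15161 and 15109 had at least 1 expected count at KO day 10, against 15206 and 15470 at WT day 2. The summed level of the 24 members was 38.7 and 31.8 CPM at KO day 10, against 27.2 and 30.3 CPM at WT day 2. At WT day 0 the sum was 48.7 and 51.7 CPM. Called higher by edgeR were 2, Piwil2 and Stk31, and none was lower, where 2.53% of all genes were higher. There were 8 higher and 1 lower at an unadjusted p under 0.05, against 17.5% of all genes in either direction, and 4 higher and 0 lower by DESeq2. Further, 22 of the 24 were lower at KO day 10 than at WT day 10, against 19.9% of all genes. The median log2 fold change was 1.59 over the 24, and 2.13 over the 16 members above the floor of 3 counts per group in at least 1 group, with groups at 0 set at that floor. Piwil2, of the piRNA pathway, had 5.703 and 7.48 CPM at KO day 10, against 1.73 and 1.04 CPM at WT day 2 (log2 fold change 2.25 ± 0.33 (SE), FDR 0.00861), a call lost without WT day 2 B or KO day 10 B at 1.95 to 2.06. Stk31 had 0.496 and 0.301 CPM at KO day 10, against 0 and 0 CPM at WT day 2 (FDR 0.0417), or 13 counts against 0, at least 5.61-fold higher. Leaving out any WT library or either KO day 10 library ended the Stk31 call, at fitted values of 5.59 to 6.31, which are no bounds. Dazl, an RNA-binding protein of germ cells, had 37 counts against 0, at least 16.0-fold higher, split as 1.86 and 0.422 CPM between the KO day 10 libraries, and was not called (FDR 0.0858). Hormad1 had 17 counts against 0, at least 7.33-fold higher (FDR 0.0866). Tuba3a had 47 against 0, but it has a near-identical copy and its count is uncertain. Where no count was seen at WT day 2, the level was under 3 counts over the group. These bounds and ratios cover counting error only.

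**Figure D4:**
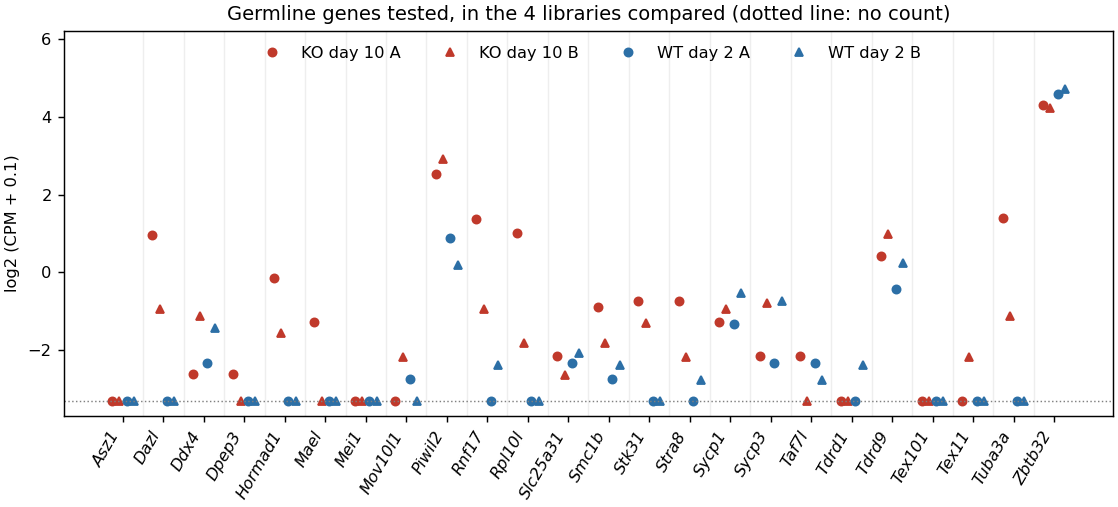
Level as log2 (CPM + 0.1) (y axis) of the 24 germline genes tested (x axis) in KO day 10 (red) and WT day 2 (blue), with circles for replicate A and triangles for replicate B, and a dotted line where there was no count. Red points lie above the dotted line for Dazl, Hormad1, Rpl10l, Stk31 and Tuba3a, where both blue points lie on it.

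Epithelial junction genes were called in 1 direction. Of 24 tested, none was higher and 3 were lower (Epcam, Krt8 and Krt19), with a median of -0.51 against -0.02 over all genes, and 18 were lower than at WT day 10. Over all genes 2.53% were called higher and 1.88% lower, and 19.9% were lower than at WT day 10. At an unadjusted p under 0.05, where edgeR had 17.5% of all genes, 1 of the 24 was higher and 9 lower, and DESeq2 called 1 higher and 6 lower. Epcam, a cell adhesion molecule of epithelia and pluripotent cells, had 84.4 and 74.2 CPM at KO day 10, against 224 and 298 CPM at WT day 2 (log2 fold change -1.72 ± 0.30 (SE), FDR 0.0175). Cdh1 (E-cadherin) had 111 and 77.04 CPM at KO day 10, against 235 and 471 CPM at WT day 2 and did not pass the test (log2 fold change -1.91 ± 0.52 (SE), FDR 0.0828). Krt8, a keratin of simple epithelia, had 10.04 and 4.401 CPM at KO day 10, against 22.4 and 20.05 CPM at WT day 2 (log2 fold change -1.55 ± 0.33 (SE), FDR 0.0333), and Krt19 had 9.36 and 10.6 CPM at KO day 10, against 23.7 and 20.7 CPM at WT day 2 (log2 fold change -1.16 ± 0.23 (SE), FDR 0.0263). Epcam lost its call without any 1 of the 4 libraries compared, at -1.91 to -1.47. The call of Krt19 was lost without any of the 4 or without WT day 10 A or B, at -1.23 to -1.06, and that of Krt8 without any WT library or KO day 10 B, at -1.60 to -1.06.

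Of 12 genes of stratified epithelium tested, Sfn and Dsg3 were lower and none was higher, with a median of -1.30. Over all genes 2.53% were called higher and 1.88% lower. Unadjusted p-values of edgeR were under 0.05 for 0 higher and 5 lower members, against 9.63% and 7.83% of all genes. DESeq2 called 0 higher and 3 lower, against 5.4% and 4.2% of all genes. Sfn (14-3-3 sigma), a p53 target and epithelial marker, had 59.02 and 47.9 CPM at KO day 10, against 175 and 144 CPM at WT day 2 (log2 fold change -1.58 ± 0.22 (SE), FDR 0.00799), after 5.55 and 7.65 CPM at KO day 0. Dsg3, a desmosomal cadherin of epidermis, had no count at KO day 10 and 64 at WT day 2, at least 16.5-fold lower. The Sfn call was lost without any 1 of the 4 libraries compared, at -1.75 to -1.42, and the Dsg3 call without WT day 2 B, KO day 10 A or KO day 10 B, at fitted values of -7.89 to -7.43, which are no bounds. Sprr2a1, which shares reads with near-identical copies, is uncertain.

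Mesenchymal genes were called in both directions, more of them lower. Of 27 tested, 2 were higher and 4 lower, against 2.53% and 1.88% of all genes, with a median of -0.24. At an unadjusted p under 0.05 edgeR had 3 higher and 7 lower, against 9.63% and 7.83% of all genes. DESeq2 called 3 higher and 6 lower, against 5.4% and 4.2% of all genes. Zeb2, a repressor of E-cadherin, had 23.2 and 23.03 CPM at KO day 10, against 10.9 and 11.2 CPM at WT day 2 (log2 fold change 1.07 ± 0.18 (SE), FDR 0.0146), and its relative Zeb1 had 48.7 and 53.4 CPM at KO day 10, against 32.7 and 27.7 CPM at WT day 2 (log2 fold change 0.76 ± 0.17 (SE), FDR 0.0452). The lower ones were the collagens Col1a1, Col1a2 and Col5a2 and the repressor Snai1. Col1a2 had 0.124 and 0 CPM at KO day 10, against 4.63 and 15.2 CPM at WT day 2 (log2 fold change -7.20 ± 1.03 (SE), FDR 0.0115), from 2 counts against 429, 0.00603 times the WT level (counting interval 0.000728 to 0.0219). Replicate A was above replicate B in 6 of the 27 genes at WT day 2, and Col1a2 differed 3-fold between them, so the groups do not overlap but the WT level is poorly fixed. Vim and Fn1 were not called (FDR 0.603 and 0.844). Without any 1 of the 4 libraries compared Zeb2 lost its call, at 1.05 to 1.11, and Zeb1 also without any other WT library, at 0.67 to 0.88. Col1a2 and Col5a2 lost theirs without WT day 2 B, KO day 10 A or KO day 10 B, at -10.62 to -6.07 and -4.66 to -3.68, and Col1a1 also without WT day 10 A or B, at -10.72 to -3.98. Snai1 lost it without the 4 or WT day 10 A, at -1.92 to -1.48.

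The treatment itself acts on Wnt signalling, through GSK3, and on ERK signalling, through MEK. Of 18 Wnt targets tested, edgeR called 1 higher (Nkd1) and 1 lower (Sp5), against 2.53% and 1.88% of all genes. Their median log2 fold change was -0.33. At an unadjusted p under 0.05 there were 3 higher and 4 lower, against 9.63% and 7.83% of all genes. DESeq2 called 1 higher and 3 lower, against 5.4% and 4.2% of all genes. Sp5, a zinc-finger factor induced by Wnt, is shown with its promoter (chr2:70474673-70474972, GRCm38.p6, plus strand, RefSeq) because it was the Wnt target with the largest difference. The TCF/LEF motif CTTTGAT, found on the strand shown, is in capitals.
Sp5: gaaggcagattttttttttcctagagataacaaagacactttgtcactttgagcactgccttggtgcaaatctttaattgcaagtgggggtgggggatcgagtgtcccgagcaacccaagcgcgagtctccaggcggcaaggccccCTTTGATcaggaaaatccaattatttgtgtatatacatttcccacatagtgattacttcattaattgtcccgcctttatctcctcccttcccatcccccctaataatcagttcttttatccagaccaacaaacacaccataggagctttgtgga
The motif was held by 4.29% of all genes with a promoter, in any promoter of this length, searched on both strands. Only 63.2% of the Wnt list had a promoter in the table, so no share over the list is given. Sp5 had 0.124 and 0 CPM at KO day 10, against 6.06 and 6.67 CPM at WT day 2 (log2 fold change -6.56 ± 0.68 (SE), FDR 0.00565), from 2 counts against 270, and no count in either KO library at day 0 or day 2. In WT cells it stood at 0.0399 and 0.09895 CPM at day 0 and 1.11 and 1.12 CPM at day 10, so the WT day 2 peak had no counterpart in the KO libraries at the times sampled. Its call was lost without WT day 2 B, at -6.46.

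Among the other Wnt targets edgeR called Nkd1. Axin2, a feedback inhibitor of Wnt, had 7.44 and 13.3 CPM at KO day 10, against 12.03 and 16.6 CPM at WT day 2 (FDR 0.673), after a mean of 0.0247 CPM at KO day 0. Notum, a secreted Wnt inhibitor, had 82.8 and 67.3 CPM at KO day 10, against 151 and 256 CPM at WT day 2 (FDR 0.115), and Wnt8a, a ligand, had 22.3 and 20.2 CPM at KO day 10, against 70.5 and 106 CPM at WT day 2 (FDR 0.0674). For both, the KO day 10 libraries lay below the WT day 2 libraries without passing the test. Nkd1, an inhibitor of Dishevelled, had 3.97 and 3.38 CPM at KO day 10, against 0.838 and 1.22 CPM at WT day 2 (log2 fold change 1.82 ± 0.35 (SE), FDR 0.024). Leaving out any WT library or either KO day 10 library ended the Nkd1 call, at 1.58 to 2.15.

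Of 20 ERK-responsive genes, 3 were higher and none lower, with a median of 0.07, while 11 were higher and 1 lower against WT day 10. The shares over all genes were 2.53% and 1.88% against WT day 2, and 12.4% and 19.9% against WT day 10. With edgeR 8 were higher and 3 lower at an unadjusted p under 0.05, against 17.5% of all genes in either direction, and DESeq2 called 4 higher and 2 lower. Spred1, a brake on RAS signalling, had 49.8 and 50.3 CPM at KO day 10, against 26.7 and 26.6 CPM at WT day 2 (log2 fold change 0.91 ± 0.16 (SE), FDR 0.0197), and Etv4, an ETS factor, had 44.7 and 37.4 CPM at KO day 10, against 25.2 and 23.2 CPM at WT day 2 (log2 fold change 0.76 ± 0.15 (SE), FDR 0.0294), against 1.69 and 1.87 CPM at WT day 10. Spry1, another feedback inhibitor, had 1.43 and 2.59 CPM at KO day 10, against 0.641 and 0.544 CPM at WT day 2 (log2 fold change 1.75 ± 0.39 (SE), FDR 0.0424). The direct readouts Dusp6 and Spry4 were not called (FDR 0.314 and 0.232). The immediate early gene Fos had 168 and 27.9 CPM at KO day 10, against 8.38 and 12.8 CPM at WT day 2 and was not called, its KO libraries 6-fold apart. Spred1 lost its call without any 1 of the 4 libraries compared (0.90 to 0.93). Etv4 did so without any WT library or either KO day 10 library (0.61 to 0.90), and Spry1 without any library but WT day 0 A and B (1.27 to 2.11).

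Interferon genes were lower at KO day 10 where they were called. Of 25 tested, 4 were lower (Irf1, Ifih1, Oas1a and Zbp1) and none was higher, with a median of -0.57, and 19 were lower than at WT day 10. Over all genes 1.88% were lower than at WT day 2 and 19.9% lower than at WT day 10. At an unadjusted p under 0.05 edgeR had 1 higher and 7 lower, against 9.63% and 7.83% of all genes. DESeq2 called 0 higher and 6 lower, against 5.4% and 4.2% of all genes. Irf1, a transcription factor of the interferon response, had 31.00 and 27.6 CPM at KO day 10, against 81.2 and 71.7 CPM at WT day 2 (log2 fold change -1.38 ± 0.17 (SE), FDR 0.00476), and 32.8 and 29.4 CPM at KO day 0 against 58.7 and 56.7 CPM at WT day 0. Its groups were far apart and its call held with every library left out, but not when more than a 2-fold change was required. Oas1a, which makes the activator of RNase L, had 6.63 and 6.09 CPM at KO day 10, against 24.6 and 20.00 CPM at WT day 2 (log2 fold change -1.81 ± 0.31 (SE), FDR 0.015). Ifih1 (MDA5), a sensor of double-stranded RNA, had 0.682 and 0.844 CPM at KO day 10, against 2.96 and 2.45 CPM at WT day 2 (log2 fold change -1.81 ± 0.35 (SE), FDR 0.0234), and Zbp1, a sensor of left-handed nucleic acid, had 4.71 and 4.22 CPM at KO day 10, against 10.6 and 9.62 CPM at WT day 2 (log2 fold change -1.18 ± 0.24 (SE), FDR 0.0289). Oas1a lost its call without any 1 of the 4 libraries compared (-1.93 to -1.66), Ifih1 also without WT day 10 A (-1.96 to -1.68), and Zbp1 also without WT day 10 A or B (-1.27 to -1.09). Of 13 MHC class I pathway genes edgeR called none, with a median of -0.50, 1 higher and 3 lower at an unadjusted p under 0.05, and 1 higher and 2 lower by DESeq2.

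In the lists of H3K9 and DNA methylation genes edgeR called Kdm3b and Dnmt3b, and in that of Polycomb genes Phf19. Of 16 Polycomb genes tested, 1 was higher and none lower, against 2.53% and 1.88% of all genes. At an unadjusted p under 0.05 edgeR had 2 higher and 0 lower, and DESeq2 called 1 and 0. Phf19 had a log2 fold change of 0.98. Its call was lost with only the 4 libraries compared, and without any WT library or either KO day 10 library (0.81 to 1.17). Of 18 genes of the Kdm3 family and of H3K9 methylation, Kdm3b was the 1 called by edgeR, and DESeq2 called 0 higher and 1 lower. Of 15 genes of DNA methylation, edgeR called Dnmt3b, and DESeq2 called 1 higher and 1 lower. Dnmt3b, a de novo methyltransferase, had 19.03 and 12.9 CPM at KO day 10, against 36.7 and 40.2 CPM at WT day 2 (log2 fold change -1.27 ± 0.20 (SE), FDR 0.0128). Uhrf1, which recruits the maintenance methyltransferase, had 452 and 362 CPM at KO day 10, against 539 and 466 CPM at WT day 2 (FDR 0.572). Dnmt3l, the cofactor of the de novo enzymes, had 4.22 and 0.784 CPM at KO day 10, against 0.0986 and 0.0454 CPM at WT day 2 and was not called by edgeR (FDR 0.0677), with KO replicate A 5-fold over B. Of 21 imprinted genes, 2 were lower and none higher, with a median of -0.37 (1 higher and 4 lower at an unadjusted p under 0.05, 1 and 3 by DESeq2). For every list of this paragraph, the shares over all genes were 2.53% higher and 1.88% lower by edgeR. They were 9.63% and 7.83% at an unadjusted p under 0.05, and 5.4% and 4.2% by DESeq2. Mest, expressed from the paternal allele, had 11.04 and 10.5 CPM at KO day 10, against 29.9 and 27.03 CPM at WT day 2 (log2 fold change -1.40 ± 0.17 (SE), FDR 0.00526). Asb4, the other imprinted gene called, had 0.558 and 0.543 CPM at KO day 10, against 4.44 and 3.86 CPM at WT day 2 (log2 fold change -2.90 ± 0.39 (SE), FDR 0.00937). Without WT day 2 A, WT day 2 B or KO day 10 B Dnmt3b lost its call (-1.34 to -1.002), Mest lost it without WT day 2 B or KO day 10 A (-1.45), and Asb4 without any 1 of the 4 libraries compared (-2.97 to -2.80).

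Hox genes, which set position along the body axis and are silent in naive pluripotent cells, were higher at KO day 10 where called. Of 28 tested, 6 were higher (Hoxb3, Hoxc5, Hoxc8, Hoxc9, Hoxc13 and Hoxd13) and none was lower, with a median of 0.53, and 17 were higher and 3 lower than at WT day 10. Over all genes 2.53% were called higher, and 17.5% had an unadjusted p under 0.05. Against WT day 10, 12.4% of all genes were higher and 19.9% lower. DESeq2 called 10 of the 28 higher and 0 lower, and edgeR had 11 higher and 1 lower at an unadjusted p under 0.05. Hoxd13, a gene of the distal limb, had 59.5 and 54.4 CPM at KO day 10, against 14.7 and 12.3 CPM at WT day 2 (log2 fold change 2.07 ± 0.25 (SE), FDR 0.00476), and 3.54 and 4.75 CPM at WT day 10. It was at 81.1 and 61.3 CPM at KO day 0, against 30.9 and 27.7 CPM at WT day 0. Hoxb3 had 2.42 and 1.87 CPM at KO day 10, against 0.246 and 0.408 CPM at WT day 2 (log2 fold change 2.68 ± 0.43 (SE), FDR 0.0128), with a mean of 7.11 CPM at KO day 0. In the Hoxa cluster, Hoxa10 was not called, at 23.2 and 22.00 CPM at KO day 10, against 27.5 and 26.3 CPM at WT day 2 (FDR 0.487). Hoxd13 lost its call without WT day 2 B (1.98), and Hoxb3 without any 1 of the 4 libraries compared (2.37 to 3.11). Hoxc5 and Hoxc9 lost theirs without KO day 10 A or either WT day 2 library (2.98 to 4.15 and 2.30 to 2.88). Hoxc8 lost it without any of the 4 or WT day 10 A (2.27 to 2.97), and Hoxc13 without any of the 4 or either WT day 10 library (1.80 to 2.67).

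The remaining lists held few calls. For comparison, edgeR called 2.53% of all genes higher and 1.88% lower, and 17.5% had an unadjusted p under 0.05. DESeq2 called 5.4% of all genes higher and 4.2% lower. Of 15 neural genes 1 was higher (Sox1) and 1 lower (Mtap2), a call lost with any library left out (-0.81 to -0.70). Of 7 tested primed epiblast genes Pou3f1 was higher, with 2.36 and 1.51 CPM at KO day 10, against 0.493 and 0.454 CPM at WT day 2 (log2 fold change 2.01 ± 0.34 (SE), FDR 0.0152), and Otx2 and Dnmt3b were lower. Pou3f1 lost its call without WT day 2 A, WT day 2 B or KO day 10 A (1.65 to 2.07). Of 12 trophectoderm, 6 genes of the cleavage-stage embryo, 17 cell cycle inhibitor and p53, 24 cell cycle and 24 glycolysis genes edgeR called none, with medians of -0.65, -0.18, 0.23, -0.11 and 0.35. At an unadjusted p under 0.05 these lists had, in the same order, 2, 1, 2, 1 and 4 members in either direction, and DESeq2 called 1, 0, 1, 0 and 1. Of 13 primitive endoderm genes, Gata4 was higher, with 0.558 and 0.965 CPM at KO day 10, against 0.0493 and 0.0454 CPM at WT day 2 (log2 fold change 3.84 ± 0.60 (SE), FDR 0.0118), a call lost without WT day 2 A, WT day 2 B or KO day 10 B (3.41 to 3.89). Of 7 endothelial genes Pecam1, which naive pluripotent cells also express, had 5.33 and 3.496 CPM at KO day 10, against 1.18 and 1.59 CPM at WT day 2 (log2 fold change 1.66 ± 0.27 (SE), FDR 0.0134), and Cdh5 (VE-cadherin) had 0.124 and 0.543 CPM at KO day 10, against 3.402 and 7.12 CPM at WT day 2 (log2 fold change -3.95 ± 0.65 (SE), FDR 0.0176). The Pecam1 call was lost without WT day 2 A, WT day 2 B or KO day 10 A (1.31 to 1.92), and the Cdh5 call without WT day 10 A, WT day 2 B or either KO day 10 library (-5.33 to -3.28). The summed level of the endothelial list was 53.9 and 45.8 CPM at KO day 10, against 32.9 and 52.1 CPM at WT day 2, ranges that overlap.

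**Figure D5:**
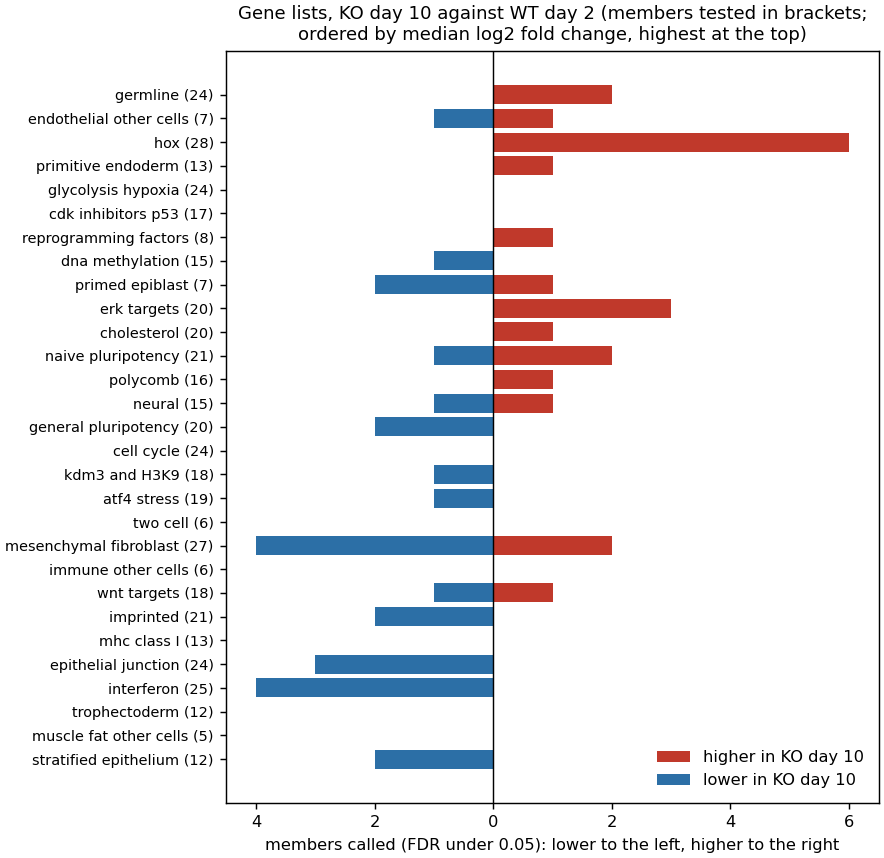
Members called at FDR under 0.05 in KO day 10 against WT day 2 (x axis), with blue bars to the left for lower and red bars to the right for higher, in each of 29 gene lists (y axis, members tested in brackets). Lists are ordered by their median log2 fold change, from germline genes at 1.59 at the top to genes of stratified epithelium at -1.30 at the bottom, and no list has more than 6 members called in 1 direction.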

How the data were processed

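Single-end RNA-seq libraries (13 samples) were mapped to mm9, with Bowtie2 and RSEM, per the submitters' processing notes; the sources used here give no versions. The deposited tables hold, per the file headers, the authors' expected counts and TPM per gene; the TPM were not used for any printed value. RSEM divides a read that fits several transcripts among them, so genes with near-identical copies are uncertain, and 35.0 to 43.8% of the expected counts per library were not whole (farther than 0.005 from a whole number). After rounding, edgeR 4.0.16 (R 4.3.3, limma 3.58.1) fitted 1 quasi-likelihood model to the 12 pre-iPSC libraries (6 groups, 6 residual degrees of freedom, common biological coefficient of variation 0.266), with filterByExpr, TMM and two-sided tests, called at a Benjamini-Hochberg FDR under 0.05. The ESC library was left out. Totals ran between 14891294 and 26430050 expected counts. Groups follow titles and time points; the 4 day 0 libraries are titled DMSO, although their treatment label is AA+2i. A group at 0 was set at 3 counts over its libraries, and counting intervals cover 0.95. The main fit was run on simulated data with each library drawn independently, so variation shared by same-letter libraries was not covered. Alternatives were RLE scaling, no filter, DESeq2 1.42.0, a fit of only the 4 libraries, a replicate block, a test against a 2-fold change, unrounded counts and leaving out each library.

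The genes named are Kdm3b, the 15 largest called changes each way without overlap and with 5 CPM or more on average, up to 5 members (1 CPM or more) of each of 29 lists, the reprogramming factors, and in each direction the 8 farthest from all WT libraries, as far as each group needs. Zeb1, Gata4, Hoxc13, Stk31, Hormad1 and other list members outside this rule were named after their values were seen. Members, lists and tests were chosen with earlier results of these data known. Promoters are from RefSeq (GRCm38.p6), and no coordinate of the files' build was used.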

Additional observations from a re-analysis of the deposited data

How the results depend on the processing

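The 74 called genes followed kept their direction in the 20 alternatives to the fit reported, whereas genes that were not called, such as Sox2 and Klf4, could change sign. Of the 74, 14 kept their call in all of them and 14 lost it with only the 4 libraries compared, which left 635 genes called. RLE scaling (640), no filter (522) and unrounded counts (636) kept the count against WT day 2 within 1.5 times of 632. In the order KO day 10 against WT day 2, against WT day 0, against KO day 2, WT risers called higher, WT fallers called lower, genes level in WT called, genes higher in KO at both times, genes lower at both times, and called genes outside all WT libraries, the counts of 632, 1517, 444, 139, 62, 145, 131, 187 and 398 became 1376, 2331, 1341, 302, 149, 364, 274, 347 and 759 with DESeq2. With the letter as a replicate block they became 1332, 2492, 1152, 280, 160, 336, 267, 334 and 741, and with a test against a 2-fold change 69, 413, 67, 9, 6, 12, 13, 38 and 59 (2132 in place of 4628 against WT day 10). Same-letter libraries of days 0 and 2 varied together (r of 0.741 to 0.812 across genes) but not WT day 2 with KO day 10 (0.0492), so the letters do not pair the groups compared. A replicate block for days 0 and 2 only, chosen after seeing the data, gave 4625, 5944, 5328, 868, 877, 1245, 967, 902 and 1833, and 9136 against WT day 10. With 1 library left out, where a lone library of a group is assumed to vary like the others, the counts ranged from 45 to 644, 481 to 1602, 112 to 373, 10 to 147, 8 to 63, 8 to 144, 12 to 130, 28 to 189 and 39 to 411, and from 2620 to 5009 against WT day 10. The share of genes called lower that were already lower in KO at day 0 ranged from 39.9 to 95% over the alternatives, and that of genes called higher from 18.3 to 80%. The causes were not tested. Depth sets the floor of 3 counts: 8 of the 24 germline genes were at or under it in both groups, where no difference could be given.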
